A study of Mus musculus with 6 samples.

Results

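The GATA family and its Fog cofactors were examined as the 8 genes Gata1 to Gata6, Zfpm1 and Zfpm2, taken by symbol from a table of 24028 genes. RNA was sequenced from mouse oocytes of the germinal vesicle (GV) stage, which rest in meiotic prophase. The 3 dKO libraries came from females of genotype Ring1 -/-; Rnf2 f/f; Zp3-cre, and the 3 control libraries from Ring1 -/-; Rnf2 f/f females without the transgene, all on a mixed background of FVB, 129/Sv and C57BL/6J. Ring1 and Rnf2 encode the E3 ubiquitin ligases at the core of Polycomb repressive complex 1 (PRC1), and the comparison asks which RNAs differ when oocytes that already lack Ring1 also lose Rnf2. Zp3-cre is driven by the promoter of a zona pellucida gene that is active in growing oocytes, so Rnf2 is removed during oocyte growth. Each library held 15 oocytes of 1 female of about 3 months. The labels do not name the females, so p-values measure the spread between these libraries. No library carried Zp3-cre without the floxed alleles or had intact Ring1, so the transgene itself and the loss of Rnf2 cannot be told apart.

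GATA factors are zinc finger proteins named after the DNA letters that they bind. Gata1 drives red cells, megakaryocytes and mast cells, Gata2 acts in blood stem cells and trophoblast, and Gata3 acts in T helper cells, kidney, inner ear and trophoblast. Gata4, Gata5 and Gata6 act in heart, gut and gonad, with Gata6 also needed for the primitive endoderm of the blastocyst and Gata4 for the granulosa cells that surround the oocyte. The Fog proteins, Zfpm1 (FOG1) and Zfpm2 (FOG2), do not need to bind DNA themselves: they dock on a zinc finger of GATA factors and can recruit the CtBP and NuRD corepressors.

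Many GATA genes have CpG-rich start regions, the kind of DNA to which Polycomb complexes are recruited in mammals. Promoter windows of 300 bases, 250 before and 50 after an annotated start, were available for 5 of the 8 genes from RefSeq on build GRCm38.p6; the windows of Gata4, Gata6 and Zfpm2 were not used here. The windows of Gata2, which rose, and of Gata3 and Gata1, which were not called, are printed as cases of differing CG content. They were chosen with these results known, and those of Gata5 and Zfpm1 are not printed. Every CG dinucleotide is in capitals and the gene's strand is read 5′ to 3′.
Gata2, upstream start, chr6:88193641-88193940, plus strand: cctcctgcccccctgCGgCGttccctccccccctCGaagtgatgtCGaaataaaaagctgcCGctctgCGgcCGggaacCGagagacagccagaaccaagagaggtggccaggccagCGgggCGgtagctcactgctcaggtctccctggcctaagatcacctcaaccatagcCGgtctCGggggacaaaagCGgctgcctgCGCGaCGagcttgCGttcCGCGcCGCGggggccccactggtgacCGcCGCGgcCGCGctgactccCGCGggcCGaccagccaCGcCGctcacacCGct
Gata2, downstream start, chr6:88198414-88198713, plus strand: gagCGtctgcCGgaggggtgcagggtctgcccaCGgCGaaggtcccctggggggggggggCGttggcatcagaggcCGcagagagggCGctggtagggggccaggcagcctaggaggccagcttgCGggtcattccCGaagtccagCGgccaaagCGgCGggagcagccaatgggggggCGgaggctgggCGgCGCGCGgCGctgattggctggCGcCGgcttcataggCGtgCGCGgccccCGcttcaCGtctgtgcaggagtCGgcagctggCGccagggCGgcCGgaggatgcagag
Gata3, chr2:9878551-9878850, minus strand: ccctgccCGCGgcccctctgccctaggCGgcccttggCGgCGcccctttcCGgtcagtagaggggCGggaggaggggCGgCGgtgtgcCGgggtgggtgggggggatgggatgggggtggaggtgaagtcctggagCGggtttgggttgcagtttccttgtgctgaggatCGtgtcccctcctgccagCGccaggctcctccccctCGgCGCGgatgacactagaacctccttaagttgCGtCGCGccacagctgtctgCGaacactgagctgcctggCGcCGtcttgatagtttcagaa
Gata1, chrX:7967861-7968160, minus strand: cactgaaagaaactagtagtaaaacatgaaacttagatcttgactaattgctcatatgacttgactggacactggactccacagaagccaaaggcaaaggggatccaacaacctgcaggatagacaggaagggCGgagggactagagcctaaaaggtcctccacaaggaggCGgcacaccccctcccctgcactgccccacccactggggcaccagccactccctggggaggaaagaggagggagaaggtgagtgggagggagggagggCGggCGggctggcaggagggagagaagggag

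The windows of Gata2 held 32 CG dinucleotides at the upstream start and 29 at the downstream start. The Gata3 window held 22, the Gata5 window 26 and the Zfpm1 window 37. The Gata1 window held 4. Among 32851 RefSeq promoter windows the median was 7 and 94.6% held at least 1 CG. Fewer CG dinucleotides than in the upstream Gata2 window were found in 90.5% of windows, and fewer than in the Gata1 window in 31.4%. Gata2 is the 1 risen gene with a window here, so CG content cannot be compared between the family genes that rose and the others. Of the others with CG-rich windows, Gata3 and Zfpm1 were not called and Gata5 was listed at 0 in every library. Over all genes, those called higher in dKO oocytes had a median of 21 CG in their most CG-rich window (n = 1174 genes with a window). The median was 19 in genes called lower (n = 596) and 23 in tested genes that were not called (n = 6764). These medians take 1 window per gene, unlike the median of 7 over all windows. The letters GATA, searched on both strands, so also as TATC, were present 1 time in the windows of Gata1 and Gata3 and absent from those of Gata2, Gata5 and Zfpm1. They occur in 57.9% of all windows of this length, and in these windows 0 of them overlapped a CG.

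**Figure D1:**
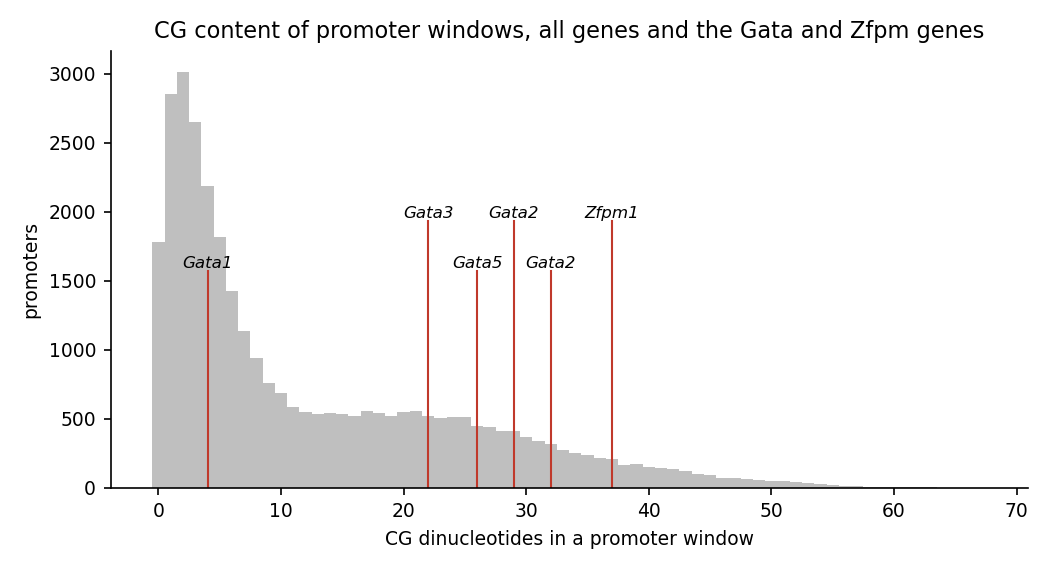
Number of CG dinucleotides (horizontal axis) in promoter windows of 300 bases, with the number of windows on the vertical axis; grey bars are all 32851 windows and red lines the windows of Gata1, Gata2 (both starts), Gata3, Gata5 and Zfpm1. The Gata1 line lies among the CG-poor windows at 4, and the others lie between 22 and 37.

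Levels are given in FPKM, a count of fragments divided by transcript length and library depth, so that levels of different genes can be set side by side. Absolute depth is unknown. Depth relative to control replicate 1, read from low values, was 0.661, 0.805 and 1.08 in dKO replicates 1 to 3 and 0.904 to 1.02 in the other controls, so low values are least precise in dKO replicate 1. Correlations of log2(FPKM + 1) between libraries were 0.928 to 0.948 within the dKO group and 0.982 to 0.983 within controls, so the dKO libraries varied more. Rnf2 stood at 14.8, 8.44 and 5.31 FPKM in dKO oocytes, against 53.7, 46.8 and 48.2 FPKM in controls. Its log2 change of -2.37 ± 0.30 (SE; limma adjusted p = 0.000696) followed the labels. Oocyte markers were abundant in every library: 12 genes, among them Zp3 and Gdf9, summed to 6932 to 8072 FPKM in dKO oocytes and 9633 to 10246 FPKM in controls. Of the 12, 4 fell and 1 rose, where 7.04% of all tested genes fell and 14.0% rose. None of the 12 was called with any 1 of the controls left out. Falls among the 12 numbered 0 to 7 on removal of 1 library. Zp1, Zp3 and Oosp1 were called lower without dKO replicate 2, and Zp2 without dKO replicate 3 (limma adjusted p 0.00737 to 0.0449).

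Gata4, Gata2 and Zfpm2 were higher in dKO oocytes, Gata3 and Gata6 were expressed in both groups and were not called different, Zfpm1 was low in both groups, Gata1 was at or near 0, and Gata5 was listed at 0 throughout. Differences were tested with limma on log2(FPKM + 1) over the 11334 genes that reached 1 FPKM in 3 or more libraries, with a Benjamini-Hochberg adjusted p under 0.05 as the call. Of all tested genes 14.0% were called higher and 7.04% lower, which makes 66.5% of the calls rises, or 52.6% after quantile normalization. Of the 8 family genes 5 passed the filter on low values, of which 3 were called higher and 0 lower. Gata2 and Zfpm2 passed the filter only through the dKO libraries, so this count was favoured by the filter and is not read against the background. Zfpm1 and Gata1 did not pass and were taken from a fit with no filter over 20310 genes, of which 9.88% were called higher and 2.68% lower.

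**Figure D2:**
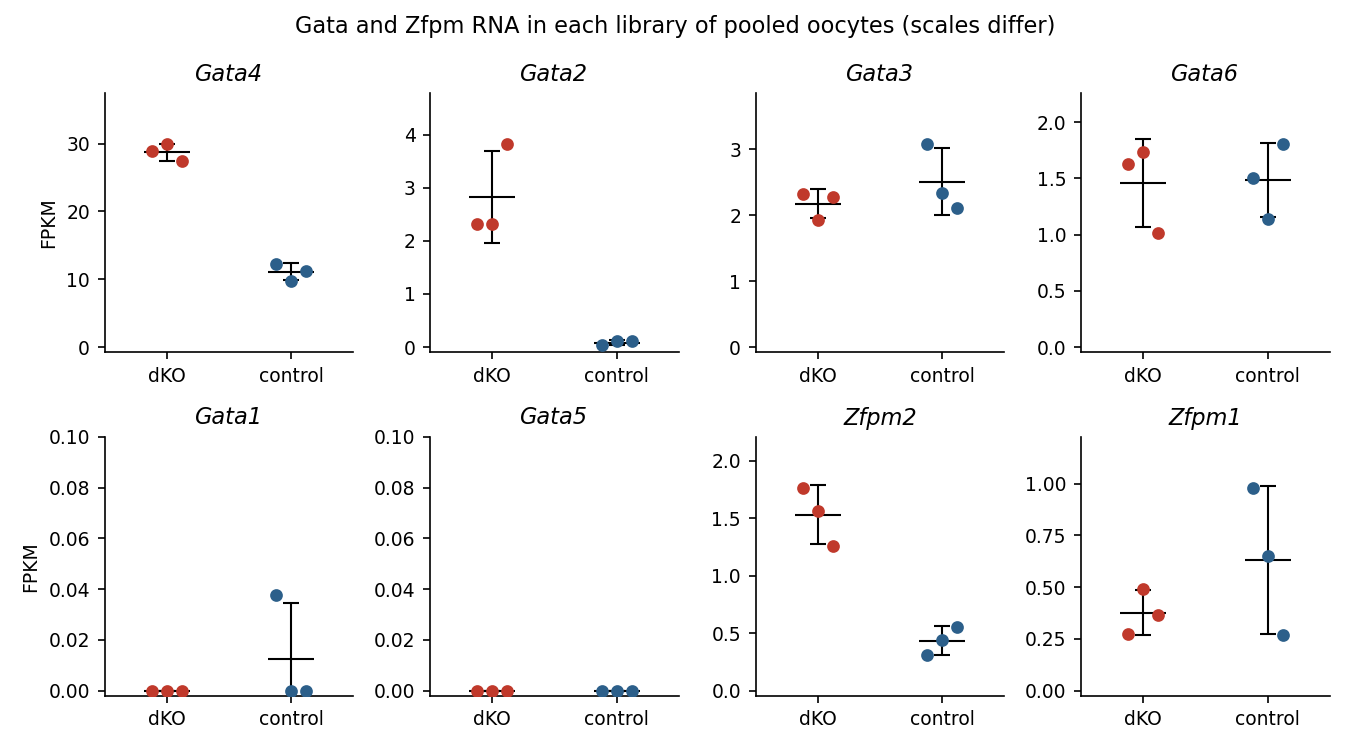
FPKM (vertical axes, each panel with its own scale from 0) of the 8 genes in the 3 dKO and 3 control libraries; points are libraries, the wide line is the mean and the bars are the SD. Gata4, Gata2 and Zfpm2 lie higher in every dKO library than in any control, while the points of the other genes overlap or lie at 0.

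Gata4, a regulator of heart, endoderm and gonad, was the most abundant family member in both groups. Its level was 28.9, 29.9 and 27.4 FPKM in dKO oocytes, against 12.3, 9.80 and 11.3 FPKM in controls. The groups did not overlap, and the dKO libraries lay close together. Means were 28.7 ± 1.25 FPKM in dKO oocytes and 11.1 ± 1.24 FPKM in controls (SD, n = 3), a ratio of 2.58. The lowest dKO library stood 2.23-fold above the highest control, and a separation upwards of this kind, with no overlap, was found in 22.3% of tested genes. On the log2 scale Gata4 rose by 1.30 ± 0.16 (SE; limma adjusted p = 0.000602), between 1.22 and 1.37 under all 15 alternatives. Within its own library Gata4 stood above 90.7 to 91.1% of all genes in dKO oocytes and above 78.3 to 81.0% in controls. Exons of Gata4 overlap no other annotated gene in GENCODE M21.

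Gata2, a factor of blood stem cells and trophoblast, had the largest relative change of the family. It stood at 2.32, 2.31 and 3.82 FPKM in dKO oocytes, against 0.0317, 0.105 and 0.114 FPKM in controls. All controls were close to 0 and dKO replicate 3 was the highest library. Means were 2.82 ± 0.868 FPKM in dKO oocytes and 0.0838 ± 0.0453 FPKM in controls (SD, n = 3). The lowest dKO value was 20.3 times the highest control value. On the log2(FPKM + 1) scale, which understates changes of low genes, Gata2 rose by 1.79 ± 0.20 (SE; limma adjusted p = 0.000349). With a pseudocount of 0.1 FPKM in place of 1 the same values gave a log2 change of 3.98, and after quantile normalization 1.33. Gata2 kept its call in all 14 alternatives in which it was tested, with limma adjusted p up to 0.00692. The deposited values are per gene, so the starts whose windows are printed above cannot be told apart in them.

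Zfpm2 (FOG2), the cofactor that Gata4 needs in heart and gonad, was higher in dKO oocytes at a low level. It stood at 1.76, 1.57 and 1.26 FPKM in dKO oocytes, against 0.310, 0.440 and 0.555 FPKM in controls. The lowest dKO library lay 2.26-fold above the highest control. Means were 1.53 ± 0.256 FPKM in dKO oocytes and 0.435 ± 0.123 FPKM in controls (SD, n = 3), and the rise was 0.82 ± 0.17 on the log2 scale (SE; limma adjusted p = 0.00982). This call was the least stable of those in the family: it was lost without control replicate 1 (log2 change 0.75, limma adjusted p = 0.0561) and after quantile normalization (0.32, limma adjusted p = 0.236). With a pseudocount of 0.1 FPKM the log2 change was 1.62. Gata4 exceeded Zfpm2 by 16.4 to 21.8 times in dKO oocytes and by 20.3 to 39.5 times in controls, so the ratio of factor to cofactor overlapped between groups.

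Zfpm1 (FOG1), which partners Gata1 in red cells and megakaryocytes, was not called. It stood at 0.275, 0.490 and 0.364 FPKM in dKO oocytes, against 0.980, 0.649 and 0.268 FPKM in controls. The groups overlapped, since control replicate 3 was below every dKO library. Zfpm1 differed by -0.23 ± 0.17 on the log2 scale (SE; limma adjusted p = 0.455, no filter), with a 95% interval of -0.65 to 0.20. The order of the cofactors differed between groups by mean level: Zfpm2 exceeded Zfpm1 by 3.20 to 6.41 times in the dKO libraries, against 0.316 to 2.08 times in controls, where the levels of the cofactors overlapped.

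Gata3, a factor of T helper cells and trophoblast, was the next most abundant member after Gata4 in controls. Its level was 2.33, 1.92 and 2.28 FPKM in dKO oocytes, against 3.08, 2.34 and 2.11 FPKM in controls. The ranges overlapped, and Gata3 differed by -0.14 ± 0.20 on the log2 scale (SE; limma adjusted p = 0.653), with a 95% interval of -0.58 to 0.31. Quantile normalization gave -0.45 (limma adjusted p = 0.153). Exons of Gata3 overlap 9230102O04Rik on the same strand and an antisense transcript, and 9230102O04Rik was listed at 0 in every library.

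Gata6, the factor of primitive endoderm, was also present in both groups. It stood at 1.63, 1.74 and 1.01 FPKM in dKO oocytes, against 1.51, 1.14 and 1.80 FPKM in controls. The highest library was a control and the lowest a dKO library. Gata6 differed by -0.019 ± 0.20 on the log2 scale (SE; limma adjusted p = 0.955), with a 95% interval of -0.48 to 0.44. Its sign changed with array weights (0.063), without dKO replicate 3 (0.12) and without control replicate 3 (0.073), and quantile normalization gave -0.42. Gata6 exons overlap 1010001N08Rik on the other strand, which reached at most 0.127 FPKM.

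Gata1, the red cell factor, was listed at 0 in all dKO libraries and in control replicates 2 and 3, and at 0.0379 FPKM in control replicate 1. Gata5, a factor of heart and gut, was listed at 0 in all 6 libraries, and its antisense gene Gata5os had 0.00339 FPKM in dKO replicate 2 and 0 elsewhere. No fold is given for either gene.

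The make-up of the family therefore differed in level more than in its leading member. The 6 Gata genes summed to 34.5 to 35.9 FPKM in dKO libraries, against 13.4 to 16.9 FPKM in controls. Gata4 held 79.4 to 83.3% of that sum in dKO oocytes and 72.5 to 73.7% in controls. Gata2 held 6.45 to 11.1% in dKO oocytes and 0.188 to 0.787% in controls. The share of Gata3 was 5.36 to 6.62% in dKO oocytes, against 13.8 to 18.2% in controls, while its level overlapped between groups. Gata4 exceeded Gata6, which can act in its place in several mouse tissues, by 17.2 to 27.1 times in dKO oocytes and by 6.25 to 8.58 times in controls.

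By mean level the order in dKO oocytes was Gata4, Gata2, Gata3, Zfpm2, Gata6, Zfpm1 and then Gata1 and Gata5 at 0. Gata2 and Gata3 overlapped each other there, as did Zfpm2 and Gata6. In controls the order was Gata4, Gata3, Gata6, Zfpm1, Zfpm2, Gata2, Gata1 and Gata5. Zfpm1 overlapped Zfpm2 in controls, and Gata2 overlapped Gata1. Gata2 thus stood behind Gata4 alone in dKO oocytes by mean, and above Gata1 and Gata5 alone in controls.

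**Figure D3:**
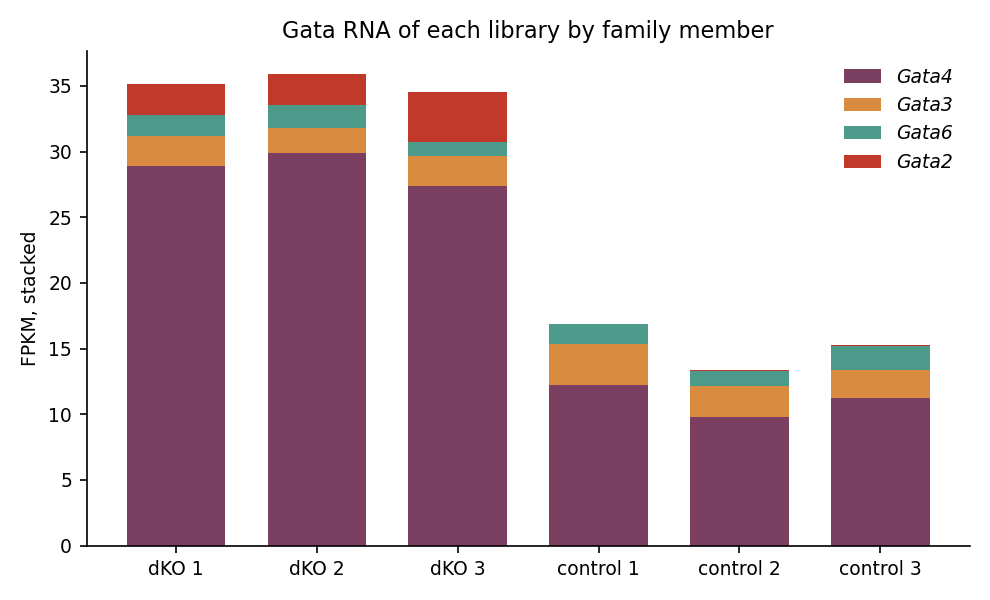
FPKM of Gata4, Gata3, Gata6 and Gata2 stacked (vertical axis) for each of the 3 dKO and 3 control libraries; Gata1 and Gata5, at or near 0, are not drawn. The stacks reach 34.5 to 35.9 FPKM in dKO libraries and 13.4 to 16.9 FPKM in controls, and Gata2 is barely visible in controls.

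The genes whose pattern was most like each risen member were found by the root mean square difference of log2(FPKM + 1) values, centred per gene, over the 6 libraries. Predicted genes, with Gm, LOC, BC, AK or Rik names, and symbols on several rows were left out. For Gata4 they were Dio2, an enzyme that activates thyroid hormone (0.0628), Fnip2, a folliculin-binding protein (0.0750), and Nrg1, a ligand of ErbB receptors (0.0774). Nrg1 stood at 14.6 ± 1.19 FPKM in dKO oocytes and 5.13 ± 0.741 FPKM in controls (SD, n = 3). Dio2 stood at 1.71 ± 0.103 FPKM in dKO oocytes and 0.167 ± 0.0798 FPKM in controls (SD, n = 3). Its ratio of means was 10.2, against 2.58 for Gata4, so likeness on this scale is not likeness in fold change. For Gata2 they were the epidermal factor gene Grhl3 (0.0865), the bZIP factor gene Nfe2l3 (0.0934) and the adhesion gene Dscaml1 (0.0972). For Zfpm2 they were the lectin gene Itln1 (0.0465), the chaperone gene Hspa2 (0.0591) and Polr2h, a shared subunit of RNA polymerases (0.0625). These differences are distances on the log2 scale, and likeness over 6 libraries in 2 groups is a description.

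The nearest protein-coding genes whose symbol could be matched in the deposited values were taken on both sides from RefSeq order on GRCm38.p6. A nearer gene under another name would have been skipped. This lookup was added after the levels of the family had been seen. Of the 6 neighbours of Gata2, Gata4 and Zfpm2, 3 passed the filter, of which 0 were called in limma and 2 had an unadjusted p under 0.05. With 14.0% of all tested genes called higher and 7.04% lower, 0 of 3 is no result about these neighbours. Next to Gata4, the DNA repair gene Neil2 stood at 2.94 ± 1.20 FPKM in dKO oocytes and 2.60 ± 0.218 FPKM in controls, and the B cell kinase gene Blk at 0.0174 ± 0.0302 FPKM in dKO oocytes and 0.00472 ± 0.00818 FPKM in controls (SD, n = 3). Next to Gata2, Rpn1, a subunit of oligosaccharyltransferase, stood at 7.63 ± 1.67 FPKM in dKO oocytes and 12.4 ± 1.62 FPKM in controls (SD, n = 3; limma adjusted p = 0.0584) and the chaperone gene Dnajb8 was listed at 0 in all libraries. Next to Zfpm2, the oxidation resistance gene Oxr1 stood at 5.05 ± 0.999 FPKM in dKO oocytes and 3.08 ± 1.01 FPKM in controls (SD, n = 3; limma adjusted p = 0.121). On the other side of Zfpm2, 9330182O14Rik, below the filter, stood at 0.114 ± 0.0291 FPKM in dKO oocytes and 0.0174 ± 0.0301 FPKM in controls, with no overlap (SD, n = 3; limma adjusted p = 0.0594, no filter). Of the 16 neighbours of all 8 genes 10 passed the filter and 1 was called, beside the same shares of all tested genes. It was the deacetylase gene Hdac6, next to Gata1, itself at or near 0. Hdac6 rose to 6.40 ± 1.31 FPKM in dKO oocytes, against 2.25 ± 0.324 FPKM in controls (SD, n = 3; limma adjusted p = 0.00545). With no filter Rbbp8nl, next to Gata5, was also called, at 0.773 ± 0.183 FPKM in dKO oocytes and 0.218 ± 0.124 FPKM in controls (SD, n = 3; limma adjusted p = 0.0369).

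Partners and targets of GATA factors in the lineages they govern were then counted, always beside the 14.0% of tested genes that were called higher and the 7.04% called lower. A gene silent or low in controls enters these counts and medians through its dKO libraries, which favours rises. Medians of the genes that passed are thus not read against that of all tested genes. Counts without the filter are therefore given too, to be set beside the 9.88% called higher and 2.68% called lower over all genes in that fit. Of 18 genes of the trophoblast, a lineage in which Gata2 and Gata3 act, 8 passed the filter: 5 rose and 0 fell (median log2 change 2.36). Eomes, Plac1, Ascl2 and Krt8 passed through their dKO libraries alone. The factor Eomes stood at 6.26 ± 1.71 FPKM in dKO oocytes and 0.0352 ± 0.00674 FPKM in controls, and Tfap2a at 18.8 ± 6.32 FPKM in dKO oocytes and 1.51 ± 0.0599 FPKM in controls (SD, n = 3). The largest change was that of the placental gene Plac1, at 4.81 ± 0.25 (SE, log2). Cdx2, which stands beside Gata3 at the start of trophectoderm, did not pass the filter, at 0.471 ± 0.302 FPKM in dKO oocytes and 0.0628 ± 0.0127 FPKM in controls. With no filter, 16 of the 18 were above 0 in any library, of which 7 rose and 0 fell, with a median of 0.43 against 0.029 over all genes.

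Of 24 endoderm genes, the lineage of Gata4 and Gata6, 11 passed the filter: 4 rose and 0 fell (median log2 change 0.49), or 2 rose without control replicate 2. The ligand gene Bmp2 (log2 change 2.75) and the laminin gene Lamc1 were the largest rises. Lamc1 stood at 25.7 ± 3.12 FPKM in dKO oocytes and 11.9 ± 0.642 FPKM in controls (SD, n = 3; limma adjusted p = 0.00223). The vitamin B12 receptor gene Cubn rose by 0.81 ± 0.17 on the log2 scale (SE; adjusted p = 0.0113 in limma), but was not called without control replicate 2 (0.0732 in limma) or after quantile normalization (0.261). The collagen gene Col4a1, at 2.29 FPKM in dKO oocytes and 1.09 FPKM in controls by mean, was called (limma adjusted p = 0.0402) but not without dKO replicate 1 or any 1 of the controls, after quantile normalization, with no filter or with the replicate block (limma adjusted p 0.055 to 0.311). The endoderm factor gene Sox17 did not pass the filter. Foxa1, another endoderm factor gene below it, stood at 0.895 ± 0.106 FPKM in dKO oocytes and 0.0579 ± 0.0511 FPKM in controls (SD, n = 3; limma adjusted p = 0.00268, no filter). Without a filter 5 of 23 listed genes rose and 0 fell (median 0.34).

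Of 15 heart genes, among them partners of Gata4, 4 passed the filter: 3 rose and 0 fell (median log2 change 1.04). Nfatc1, a factor that works with GATA proteins in heart valves, stood at 5.43 ± 0.884 FPKM in dKO oocytes and 0.928 ± 0.308 FPKM in controls (SD, n = 3). The heart progenitor factor Isl1 and the Gata4 partner Tbx5 had log2 changes of 1.25 ± 0.18 and 0.83 ± 0.16 (SE). Tbx5 lost its call after quantile normalization (limma adjusted p = 0.301). With no filter 4 of 14 rose and 0 fell (median 0.28).

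Of 19 gonadal genes, 7 passed the filter: 4 rose and 0 fell (median log2 change 1.02). The estrogen enzyme gene Cyp19a1 was lower in dKO oocytes (log2 change -0.67) and lay at the threshold (limma adjusted p = 0.05004). It was called lower with a pseudocount of 0.1 FPKM, median-ratio scaling, quantile normalization or eBayes without trend. Emx2, Nr2f2 and Lhx9, factors of the early gonad and its mesenchyme, had log2 changes of 2.05 ± 0.25, 1.84 ± 0.25 and 1.24 ± 0.17 (SE), and Emx2 reached 36.9 ± 7.70 FPKM in dKO oocytes, against 8.31 ± 2.68 FPKM in controls (SD, n = 3). The hormone gene Amh and the steroid enzyme gene Cyp11a1, which Gata4 activates in gonads, did not pass the filter. With no filter 5 of 18 rose and 0 fell (median 0.32).

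Of 15 haematopoietic partners of GATA factors matched by symbol 7 passed the filter: 2 rose and 1 fell (median log2 change -0.05). Lmo2, an adaptor that joins GATA factors to Tal1, stood at 2.07, 1.55 and 2.37 FPKM in dKO oocytes, against 0.122, 0 and 0 FPKM in controls (limma adjusted p = 0.000414). Gfi1b, a repressor of red cell genes, stood at 2.04 ± 0.787 FPKM in dKO oocytes and 0.355 ± 0.172 FPKM in controls (SD, n = 3; limma adjusted p = 0.00744), and was not past the threshold after quantile normalization (limma adjusted p = 0.111). The E protein gene Tcf3 fell by 0.75 on the log2 scale (limma adjusted p = 0.0327). It was not called with array weights, without dKO replicate 1 or with any 1 of the controls left out (limma, up to 0.145). With no filter 5 of 14 rose and 1 fell (median 0.29). Of 17 red cell and megakaryocyte targets matched by symbol 1 passed the filter and 0 were called in limma. Without the filter, Slc4a1, the anion exchanger of red cells, rose and 0 fell among the 10 above 0 in any library. The target that passed, Epb4.2 of the red cell membrane, stood at 3.18 ± 1.79 FPKM in dKO oocytes and 1.98 ± 1.03 FPKM in controls (SD, n = 3), and the heme enzyme gene Alas2 at 0.406 ± 0.174 FPKM in dKO oocytes and 0.492 ± 0.216 FPKM in controls. Of 20 lymphoid, kidney, skin and nerve genes 6 passed the filter (median log2 change -0.12): Tcf7, a T cell factor, rose (1.23 ± 0.15, SE) and Pax2, a kidney factor, fell (-1.43 ± 0.29, SE). With no filter 3 of 18 rose and 2 fell (median 0.13).

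Among the corepressors of Fog proteins and the other genes with GATA-type zinc fingers 0 were called higher in limma, but the finger gene Gatad1 was with the replicate block (limma adjusted p = 0.0417), and Gatad1 and Trps1 were without dKO replicate 2. Of 15 CtBP and NuRD genes 14 passed the filter: 0 rose and 4 fell (median log2 change -0.07). Mta3, a NuRD subunit, stood at 54.9 ± 11.1 FPKM in dKO oocytes and 89.9 ± 1.28 FPKM in controls, and the corepressor gene Ctbp2 at 18.7 ± 3.90 FPKM in dKO oocytes and 30.5 ± 2.56 FPKM in controls (SD, n = 3). The log2 changes of Mta3, Ctbp2, Gatad2b and Gatad2a were -0.72, -0.69, -0.68 and -0.55 (limma adjusted p 0.0173 to 0.0475). With any 1 of the controls left out none of these 4 was called (limma adjusted p 0.0694 to 0.199), nor was Gatad2a with the replicate block (0.053). Gatad2a and Gatad2b each lost the call in 9 of the 14 alternatives with a filter. Both lost it with the filter at 5 FPKM, quantile normalization, eBayes without trend and removal of dKO replicate 1. With no filter Mta3 fell and the other 14 were not called. The 9 other genes with a GATA-type finger all passed the filter: 0 rose and 3 fell, which were Mta3, Gatad2b and Gatad2a again (median log2 change -0.012).

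**Figure D4:**
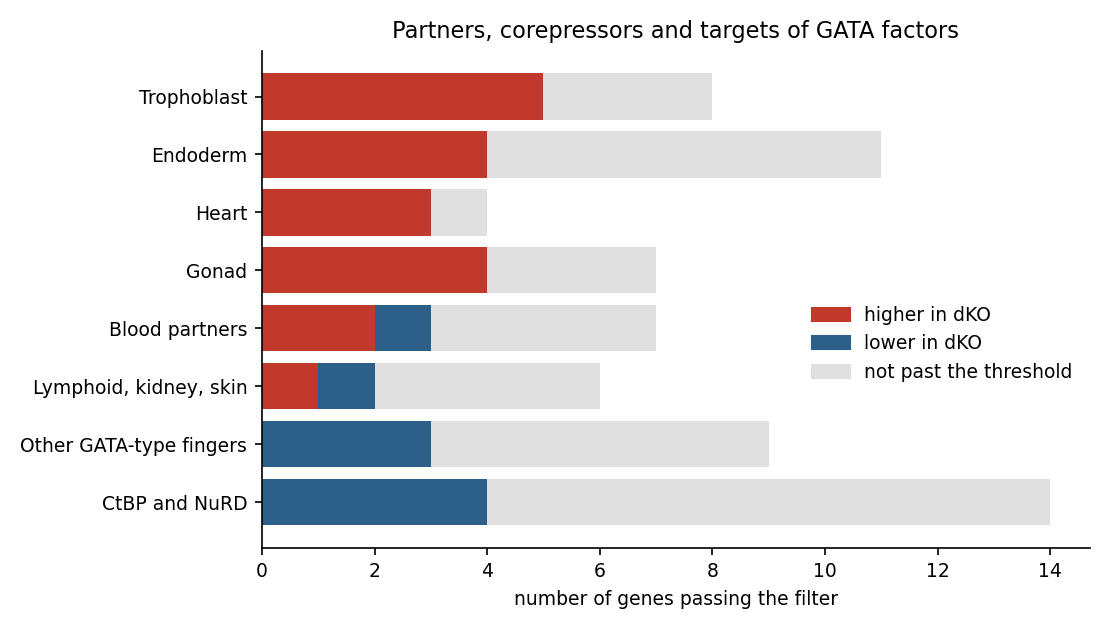
Number of genes that passed the filter (horizontal axis) in 8 groups of GATA partners, corepressors and targets, with genes called higher in red, lower in blue and not past the threshold in grey. The trophoblast, endoderm, heart and gonad groups hold rises and no falls, and the CtBP and NuRD group holds 4 falls and no rise. Of all tested genes 14.0% were called higher and 7.04% lower, and the filter favours rises. None of the 4 falls was called with any 1 of the controls left out. Red cell and megakaryocyte targets, of which 1 passed the filter and 0 were called, are not drawn.

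Markers of other ovarian cells moved with these genes in part. Their counts, and those of blood and vessel markers below, stand beside 14.0% of all tested genes called higher and 7.04% lower. With no filter these shares were 9.88% and 2.68%. In pooled oocytes a few other cells with much of an RNA and a little of it in every oocyte cannot be told apart. Of 14 granulosa and cumulus markers 5 passed the filter: 2 rose and 0 fell, and the list summed to 47.7 to 49.0 FPKM in dKO oocytes, against 26.7 to 32.5 FPKM in controls. The rises were Fshr, the receptor of follicle-stimulating hormone, at 10.6 ± 1.23 FPKM in dKO oocytes and 0.158 ± 0.0183 FPKM in controls, and the nuclear receptor gene Nr5a2, at 25.5 ± 1.61 FPKM in dKO oocytes and 16.5 ± 2.02 FPKM in controls (SD, n = 3). Nr5a2 was not called with any 1 of the controls left out (limma adjusted p up to 0.152). Without Fshr and Nr5a2 the list summed to 11.2 to 13.1 FPKM in dKO oocytes and 12.1 to 15.8 FPKM in controls. They were left out because they rose in these data, and the largest part of the remainder is Cyp19a1, lower by mean in dKO oocytes. These sums therefore do not show how the other granulosa markers moved. Sums below without a called marker were also made by leaving out a gene chosen from these data. No granulosa marker was at 0 in every library of either group. Cyp19a1 stood at 5.78 ± 0.498 FPKM in dKO oocytes and 9.94 ± 2.04 FPKM in controls, with no overlap (SD, n = 3). It was called lower with a pseudocount of 0.1 FPKM, median-ratio scaling, quantile normalization or eBayes without trend (limma adjusted p 0.0318 to 0.0498). Without the filter 3 of the 14 granulosa markers rose. Theca and stroma markers, of which 2 of 12 were tested and Nr2f2 rose, summed to 7.90 to 13.5 FPKM in dKO oocytes and 2.06 to 4.02 FPKM in controls. The other theca marker tested, Hsd3b1, stood at 2.08 ± 0.621 FPKM in dKO oocytes and 1.55 ± 0.835 FPKM in controls. In the fit without the filter 5 of these 12 markers rose, namely Nr2f2, Col1a1, Dcn, Lum and Pdgfra, with Dcn at 1.41 FPKM in dKO oocytes and 0.207 FPKM in controls by mean. Without Nr2f2 the theca and stroma sums were 4.33 to 6.70 FPKM in dKO oocytes and 1.51 to 3.51 FPKM in controls. Insl3 and Col1a2 were at 0 in all dKO libraries and Lum in all controls. The part of these cells in the levels of Gata4 and Zfpm2 was not tested.

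Blood and vessel markers bear on Gata2 and Gata1. The globin genes Hbb-b1 and Hbb-b2 were at 0 in every library. Hba-a1 and Hba-a2 were at 0 in controls, and the 8 red cell markers in the table summed to 2.22 to 5.70 FPKM in dKO oocytes and 1.94 to 3.53 FPKM in controls. The leucocyte genes Cd52 and Tyrobp were also at 0 in every library. White cell markers summed to 6.25 to 8.13 FPKM in dKO oocytes and 0.805 to 3.54 FPKM in controls, and of the 2 of 12 that were tested Mpo, a neutrophil enzyme gene, rose (log2 change 1.44 ± 0.38, SE; limma adjusted p = 0.0259), but was not called without dKO replicate 2 or 3 or control replicate 2 or 3, after quantile normalization or with no filter. Without Mpo the white cell sums were 3.45 to 4.94 FPKM in dKO oocytes and 0.751 to 2.34 FPKM in controls, where Ptprc and Emr1 were at 0. The lysosomal gene Cd68, the other one tested, stood at 1.75 ± 1.49 FPKM in dKO oocytes and 1.22 ± 0.767 FPKM in controls (SD, n = 3). Endothelial markers summed to 20.8 to 30.1 FPKM in dKO oocytes and 25.2 to 34.1 FPKM in controls. Of their 2 tested genes, Pecam1 fell by 0.72 on the log2 scale (limma adjusted p = 0.0280; not called without control replicate 1 or 3 or dKO replicate 1, with array weights or with no filter), and Tek stood at 5.43 ± 0.312 FPKM in dKO oocytes and 4.05 ± 0.718 FPKM in controls. Without Pecam1 the endothelial sums were 7.83 to 12.3 FPKM in dKO oocytes and 4.61 to 5.87 FPKM in controls. Emcn was at 0 in every library, and Cdh5 and Esam in all controls. The part of such cells in the Gata2 level was not tested.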

How the data were processed

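The authors deposited gene-level FPKM values for every library. The submitters' processing notes name TopHat2 2.0.11, Cufflinks 2.0.2 and mm9; which step each served, the annotation, strandedness and scaling were not given in sources used here. Per the labels' protocols, granulosa cells were pipetted off and RNA was amplified before library preparation. Of 24525 rows, 497 repeated a symbol with all its values and were removed. limma 3.58.1 in R 4.3.3 (lmFit, eBayes with trend, two-sided) was fitted to log2(FPKM + 1) of the 11334 genes kept, without a replicate block, and tested on simulated data. Index sequences differed by group and cannot be told apart from it. Same-numbered libraries shared a flow-cell lane per the labels, which pairs them. Their deviations from group means correlated at 0.147, 0.107 and 0.0637, against -0.110 to 0.0179 for dKO and control libraries of different number. Depth was read from the commonest ratio of values under 0.2 FPKM. Genes of each list were named by size of change among those called, or by mean level where none was. Members and lists were chosen with earlier results of these data known. Exon overlap was taken from GENCODE M21. Alternatives were other pseudocounts, filters, scalings, variance models, the block and removal of each library.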

Additional observations from a re-analysis of the deposited data

How the results depend on the processing

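Gata2 and Gata4 kept their calls under all alternatives in which they were tested, and Zfpm2 in 12 of 14. Members called higher numbered 3, and 2 or 3 on removal of 1 library. With the filter at 5 FPKM in at least 3 libraries the calls were 655 rises over all genes, 1 family gene (Gata4, since the others were not tested) and 6 listed partners and targets, against 1587, 3 and 19 in the reported fit. With no filter 29 listed genes rose. Falls over all genes, 798 in the reported fit, numbered 231 to 1465 on removal of 1 library, with the highest count without dKO replicate 2 and 258, 262 and 231 without control replicates 1, 2 and 3. Falls among listed genes, 6 in the reported fit, numbered 1 to 6, with 3 without dKO replicate 1 and 1 without any 1 control. The cause was not tested. Gata6 had log2 changes of 0.063 with array weights and -0.12 to 0.12 on removal of 1 library (0.12 without dKO replicate 3, 0.073 without control replicate 3), against -0.019. With the replicate block 1681 genes rose and 887 fell, and the block changed no call within the family. Among the named partners and targets it ended the calls of Col4a1 and Gatad2a. Low values limit the precision of Zfpm1, Gata1 and the control values of Gata2 and Zfpm2. Removal of a library left 2 in its group.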
